A study of Homo sapiens with 6 samples.

Results

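The genes described are 9 neighbours in band 11q13 of human chromosome 11: LRP5, PPP6R3, CPT1A, IGHMBP2, CCND1, FADD, PPFIA1, CTTN and NADSYN1, in RefSeq order. Every probe set that the array platform's annotation assigns to 1 of these genes was taken, which gave 20 of the 22215 probe sets and 9 of the 11963 genes tested. All 9 genes were measured, and 0 of the 20 probe sets were shared with another gene. Both groups come from NCI-H1975, a human lung cancer line of the non-small cell type that carries mutant EGFR, and each held 3 arrays. The parental group was sensitive to WZ4002, an inhibitor of mutant EGFR kinase. The other group, WZR6, is a single clone isolated after culture in rising amounts of WZ4002, so a property of that clone and a property of resistance cannot be told apart. All cells grew in RPMI medium with 5% serum and were harvested in exponential growth; the labels do not say whether WZ4002 was still present. The labels do not say whether the 3 samples of a group were separate cultures, so every SD below is the spread between these samples. Each SE rests on the same samples and on a fit that also draws on the variances of all genes or probe sets.

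Band 11q13 around CCND1 is known as a region that is often gained as a block in squamous and other carcinomas, with CCND1, FADD, PPFIA1 and CTTN among the genes that are then raised. Cyclin D1, the product of CCND1, activates the kinases CDK4 and CDK6, which phosphorylate the retinoblastoma protein and let cells leave G1; its transcription is known to respond to ERK signaling. The genes share a position but not a pathway: FADD carries death receptor signals, PPFIA1 and CTTN act at the cell edge, and the others serve WNT reception, fatty acid oxidation, NAD synthesis, phosphatase control and RNA handling. The arrays measured RNA only, and DNA copy number was not analysed here.

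Across the 9 genes, the 4 that run from CCND1 to CTTN were clearly lower in WZR6, NADSYN1 and PPP6R3 were lower by less, and LRP5, CPT1A and IGHMBP2 differed little. The genes were proposed with this comparison in view, so their differences are a description and carry no test. Values are log2 of the deposited RMA intensity, 1 unit of which is a doubling. Each gene is given first by its brightest probe set, and differences are WZR6 minus parental. All 3 WZR6 arrays lay below all 3 parental arrays for 7 of the 9 genes, above them for 1, and overlapped for 1. Over all genes tested, 27.1% had every WZR6 array below every parental array and 29.2% had every WZR6 array above. Nothing is read from the 9 genes' count against these shares, because the genes were chosen on the same contrast. The median difference of the 9 genes was -0.47, against 0.02 for all genes. In bulk RNA, fewer cells of a type and less RNA per cell cannot be told apart.

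**Figure D1:**
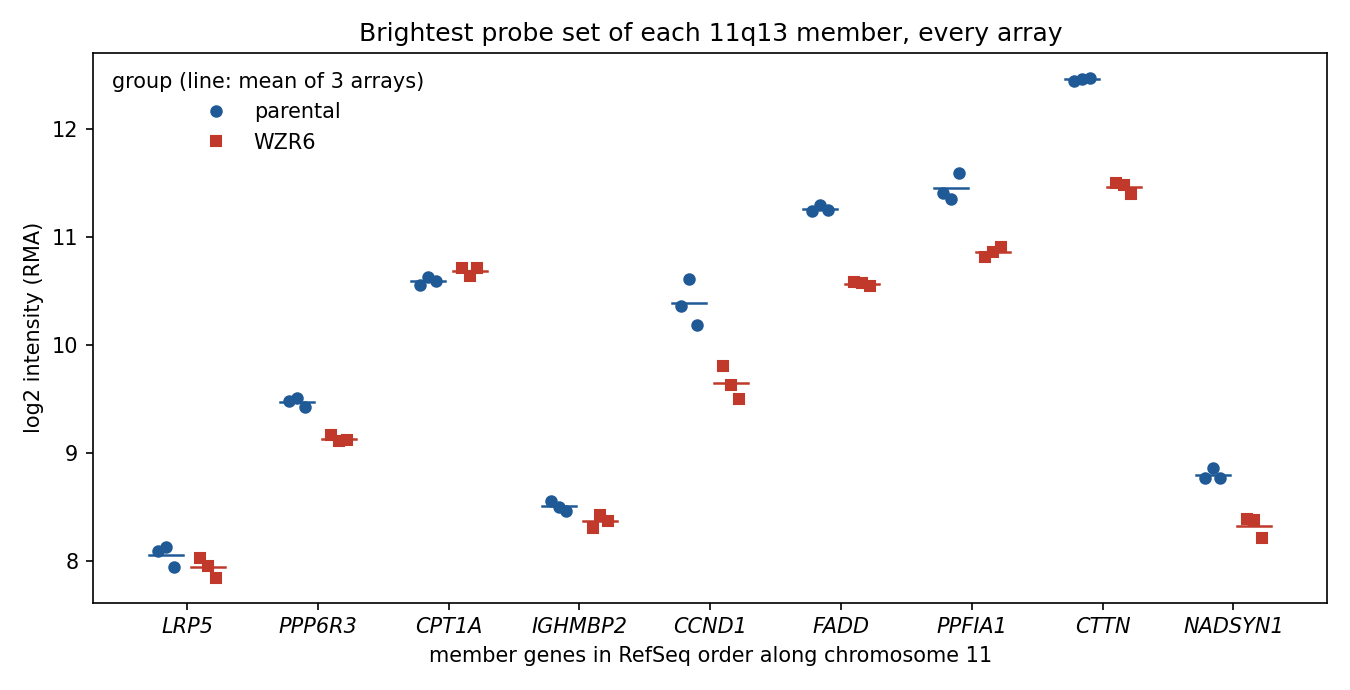
Log2 RMA intensity of the brightest probe set of each gene on every array (circles parental, squares WZR6, lines group means of 3 arrays), with genes in RefSeq order on the horizontal axis. The groups separate widely from CCND1 to CTTN, from 0.59 for PPFIA1 to 0.99 for CTTN, and lie within 0.14 of each other for LRP5, CPT1A and IGHMBP2.

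CCND1 was measured by a pair of probe sets, and both were lower in WZR6. The brighter one read 10.36, 10.61 and 10.19 in parental replicates 1 to 3 and 9.81, 9.63 and 9.50 in WZR6 replicates 1 to 3. The lowest parental array thus stood above the highest WZR6 array, although each group spread more widely for this probe set than for the brightest ones of the other 8 genes. The group means were 10.39 ± 0.21 (SD, n = 3) and 9.65 ± 0.15, a difference of -0.74 ± 0.12 (SE), or 1.67-fold lower. The second probe set, 208712_at, read 10.05, 10.08 and 10.18 in parental cells and 9.26, 9.17 and 9.28 in WZR6. It had the tighter groups and differed by -0.87 ± 0.06 (SE). The transcript of this G1 cyclin was therefore lower by both measures but stayed far above the lower quartile of all values, 5.27, in all 6 samples.

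FADD, the adaptor that joins death receptors such as FAS to caspase-8, had 1 probe set. It read 11.24, 11.30 and 11.25 in parental cells and 10.58, 10.57 and 10.55 in WZR6. The 3 arrays of each group nearly coincided, and the difference was -0.70 ± 0.04 (SE), or 1.62-fold lower.

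PPFIA1 encodes liprin-alpha-1, a scaffold that binds LAR-type phosphatases and helps organise cell-edge adhesions. Its brightest probe set, 202066_at, read 11.41, 11.35 and 11.59 in parental cells and 10.81, 10.86 and 10.91 in WZR6. The groups did not overlap, and the difference was -0.59 ± 0.07 (SE). Of its other 3 probe sets, 210236_at and 210235_s_at were lower by a similar amount, with differences of -0.54 and -0.40 and no overlap. The fourth, 202065_s_at, overlapped: it read 8.74, 9.13 and 8.59 in parental cells and 8.82, 8.73 and 8.36 in WZR6, and differed by -0.18 ± 0.17 (SE). The spread within each group of that probe set was as large as the difference itself.

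CTTN encodes cortactin, an actin-binding substrate of SRC that stabilises branched filaments made by the ARP2/3 complex. Its brightest probe set, 201059_at, showed the largest difference of the 20. It read 12.44, 12.46 and 12.47 in parental cells and 11.50, 11.48 and 11.40 in WZR6. The group means differed by -0.99 ± 0.05 (SE), or 1.99-fold, many times the spread within a group. The other 3 probe sets were lower as well, each without overlap, but by unequal amounts: -0.58 for 214074_s_at, -0.46 for 214782_at and -0.23 for 214073_at. Averaged over its 4 probe sets, CTTN differed by -0.56, so the size of its difference depends on the probe sets used.

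NADSYN1, the glutamine-dependent synthetase that completes NAD production from nicotinic acid, lies at the distal end of the group and had 1 probe set. It read 8.77, 8.86 and 8.77 in parental cells and 8.39, 8.38 and 8.22 in WZR6. The groups did not overlap, and the difference was -0.47 ± 0.06 (SE), or 1.39-fold lower.

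The 4 genes on the centromeric side of CCND1 differed less, with a median of -0.13 against -0.72 for CCND1, FADD, PPFIA1 and CTTN. PPP6R3, a regulatory subunit of protein phosphatase 6, differed most among them. It read 9.48, 9.51 and 9.43 in parental cells and 9.17, 9.11 and 9.12 in WZR6, a difference of -0.34 ± 0.04 (SE) without overlap. LRP5, a co-receptor for WNT ligands, read 8.10, 8.13 and 7.95 in parental cells and 8.03, 7.96 and 7.85 in WZR6, and the groups overlapped. Its difference of -0.11 ± 0.07 (SE) was within the range of either group.

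CPT1A, the outer mitochondrial membrane enzyme that commits long-chain fatty acids to oxidation, was the exception in direction. Its brightest probe set, 203633_at, read 10.56, 10.63 and 10.59 in parental cells and 10.71, 10.64 and 10.71 in WZR6. WZR6 was higher by 0.10 ± 0.04 (SE), and the closest arrays of the groups were almost level. The other 3 CPT1A probe sets overlapped between groups and differed by -0.06 to 0.05. IGHMBP2, an RNA and DNA helicase, read 8.56, 8.50 and 8.47 in parental cells and 8.31, 8.43 and 8.37 in WZR6. Its difference was -0.14 ± 0.05 (SE), and its second probe set, 215980_s_at, differed by -0.25 ± 0.05 without overlap.

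**Figure D2:**
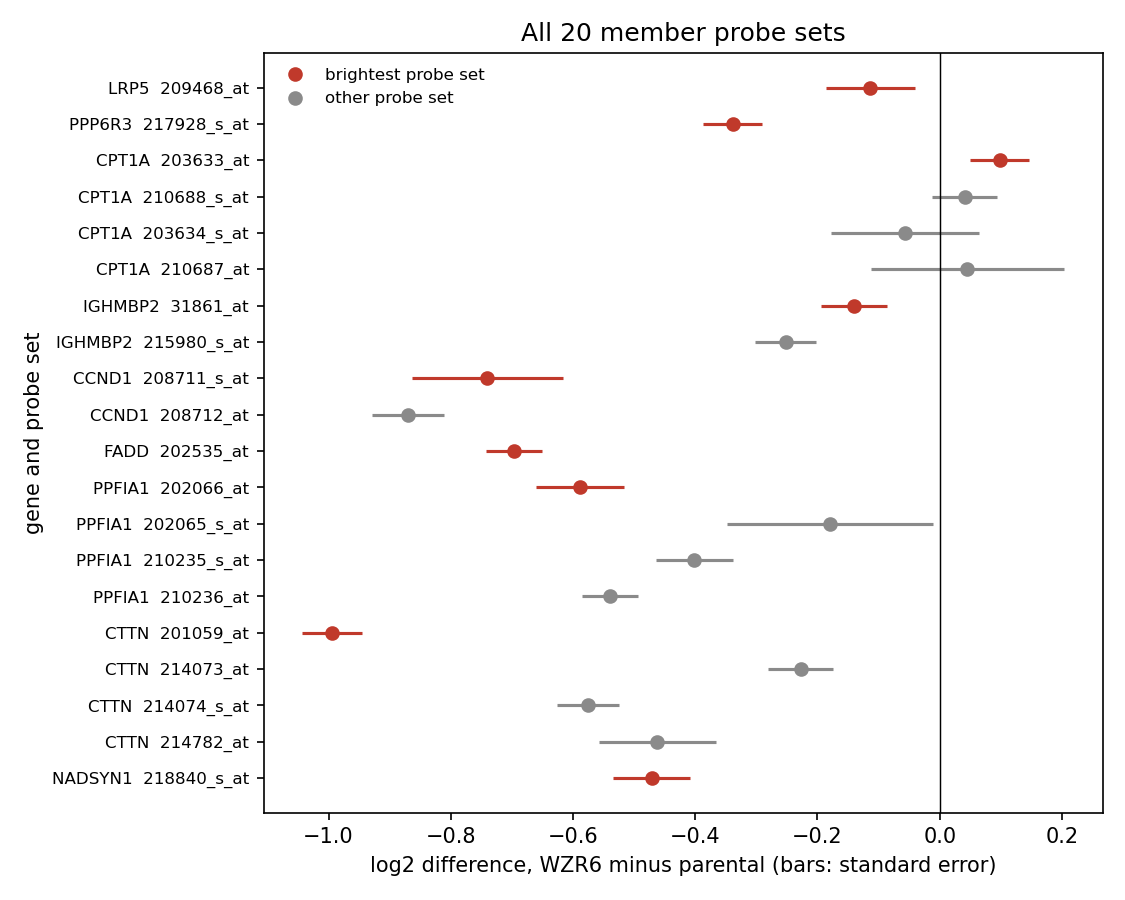
Log2 difference (WZR6 minus parental, horizontal axis) of all 20 probe sets of the 9 genes, listed by gene and probe set, with standard errors as bars. The brightest probe set of each gene is coloured; values run from -0.99 for CTTN 201059_at to 0.10 for CPT1A 203633_at, and the 4 CTTN probe sets spread from -0.99 to -0.23.

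Over the 20 probe sets together, 14 had every WZR6 array below every parental array, 1 had every WZR6 array above and 5 overlapped. Over all probe sets 23.6% were separated downward and 27.5% upward. The 5 that overlapped were the only probe set of LRP5, 1 of PPFIA1 and 3 of CPT1A. The median of the 20 differences was -0.37.

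The surrounding genes were taken by position rather than by value, and each was tested in the fit. That position was set by the 9 genes, which were proposed with this comparison in view. The counts of calls therefore describe the region and are no independent test of it. The surrounding genes comprised the 7 other measured genes that lie between LRP5 and NADSYN1, the 20 measured genes centromeric to LRP5 and the 20 distal to NADSYN1. Calls were made by limma across all genes at a Benjamini-Hochberg adjusted p under 0.05, and 23.5% of all genes were called lower and 24.5% higher, 48.0% in all; of all probe sets 41.1% were called. On the centromeric side 17 of 20 genes were lower, 0 higher and 3 not called, with a median difference of -0.69. Of these, 4 fell at least 2-fold, which 3.42% of all genes did. On the distal side 2 of 20 were lower, 5 higher and 13 not called, with a median of 0.03. The share called lower was thus 85.0% on the centromeric side and 10.0% on the distal side. The rest of chromosome 11, beyond 50 measured genes on each side, had 19.2% of its 616 genes lower and 28.2% higher, with a median of 0.06. When probe sets whose names end in _x_at or _s_at were left out, since these may match more than 1 transcript, 9 of the 12 centromeric genes still measured were lower and 1 of the 13 distal ones. The distal side held more dim genes. With only probe sets above the median level kept, 74.3% of genes were called. Then 16 of 16 centromeric genes were lower, and of 11 distal genes 1 was lower and 6 higher.

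**Figure D3:**
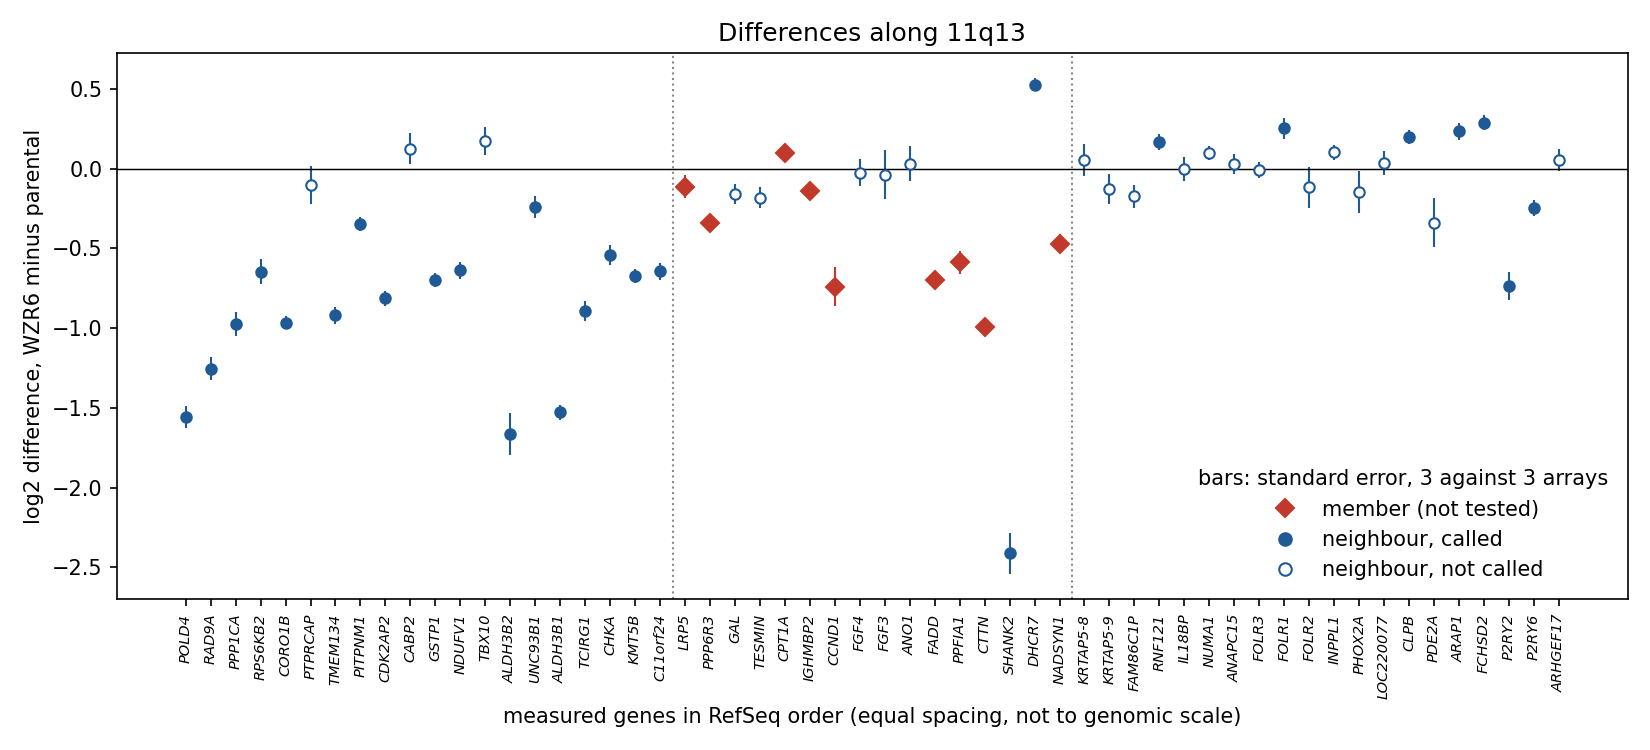
Log2 difference (WZR6 minus parental) with standard error for 56 measured genes in RefSeq order, equally spaced; diamonds are the 9 genes, filled circles neighbours called by limma and open circles neighbours not called, and dotted lines mark the ends at LRP5 and NADSYN1. Left of LRP5, 17 of 20 circles are filled and below 0; from LRP5 to IGHMBP2 values lie between -0.34 and 0.10; CCND1 and the genes from FADD to SHANK2 lie between -0.59 and -2.41; and right of NADSYN1 the median is 0.03.

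The centromeric neighbours included the largest decreases on that side. ALDH3B2, an aldehyde dehydrogenase, read 5.87, 5.72 and 5.36 in parental cells and 3.90, 4.11 and 3.95 in WZR6, so it fell from a dim level to below the lower quartile; its other probe set differed by -0.02, and the mean of both by -0.84. POLD4, the small subunit of DNA polymerase delta, fell 2.94-fold (adjusted p = 6.45e-06 in limma). ALDH3B1 fell 2.89-fold and RAD9A, a subunit of the checkpoint clamp loaded at damaged DNA, fell 2.39-fold. Nearer to LRP5, the proton pump subunit TCIRG1 fell by 0.89 ± 0.06 (SE), the choline kinase CHKA by 0.54 ± 0.06 and the histone H4 methyltransferase KMT5B by 0.67 ± 0.04. The gene next to LRP5, C11orf24, fell by 0.64 ± 0.05, read as 11.08, 11.05 and 11.13 against 10.48, 10.35 and 10.50. That value was chosen after it was seen. Between C11orf24 and LRP5 the difference changed from -0.64 to -0.11 within a single step of the gene order.

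Inside the span, 1 of the 7 other genes was lower, 1 higher and 5 not called. SHANK2, a scaffold protein best known from synapses, lies next to CTTN and was lower by more than any of the 9 genes. It read 7.29, 7.78 and 7.32 in parental cells and 5.09, 5.09 and 4.97 in WZR6, and fell 5.33-fold (adjusted p = 1.45e-05 in limma). Its WZR6 mean lay below the lower quartile, a second probe set differed by -0.76, and the other 2, dim in both groups, differed by 0.15 and 0.20 and were not called. Averaged over its probe sets, SHANK2 differed by -0.71. With values floored at the median of all probe sets, 7.38, its difference shrank to -0.13 and was not called (adjusted p = 0.275 in limma; 8.19e-10 to 0.275 over all alternatives). DHCR7, the reductase that completes cholesterol synthesis, lies between SHANK2 and NADSYN1 and rose. It read 8.90, 8.85 and 8.91 in parental cells and 9.39, 9.42 and 9.44 in WZR6, a rise of 0.53 ± 0.04 (SE, adjusted p = 7.36e-05 in limma), and its second probe set rose by 0.67. NADSYN1 and DHCR7, neighbours in the gene order, thus differed in opposite directions by about the same amount.

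The 3 genes between CCND1 and FADD, the growth factors FGF4 and FGF3 and the chloride channel ANO1, were not called, with differences of -0.02, -0.04 and 0.03. Their group means lay between 3.81 and 6.25, all under the median of all values, and background limits the differences of dim probe sets. The neuropeptide gene GAL, with both means below the lower quartile, differed by -0.16 ± 0.07 (SE, adjusted p = 0.0863 in limma) and TESMIN by -0.18 ± 0.06 (adjusted p = 0.0555). Both were called under cyclic loess scaling, at adjusted p = 0.0302 and 0.0287; over the alternatives their adjusted p in limma ran from 0.0302 to 0.349 and from 0.022 to 0.161. On the distal side the largest called increases were those of FCHSD2, 0.29 ± 0.04 (SE), and of the folate receptor FOLR1, 0.25 ± 0.06. The call of FOLR1 was lost in 4 of the 6 fits that left out 1 array. The largest distal difference was a called decrease, that of P2RY2, at -0.74 ± 0.09, and the other called decrease was P2RY6, at -0.25 ± 0.05. Both were named after their values were seen. Of a list of 32 other genes of the wider 11q13 region, 22 were measured, of which 15 were lower, 1 higher and 6 not called, with a median of -0.66; this list was written with earlier results of these data known and overlaps the neighbours above.

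Promoters are shown for FADD and PPFIA1, neighbours in the gene order that were both lower. That of CPT1A, which lies on the other side of CCND1 and differed little, is shown beside them. The pair NADSYN1 and DHCR7 is shown because these neighbours differed in opposite directions. RefSeq windows on GRCh38.p14 of 250 bases before to 50 after the gene start were found for 6 of the 9 genes. Capitals mark the GC box, GGGCGG, on either strand, with overlapping matches counted. FADD lies at chr11:70203046-70203345 on the plus strand, PPFIA1 at chr11:70270440-70270739 on the plus strand and CPT1A at chr11:68844228-68844527 on the minus strand. NADSYN1 lies at chr11:71452953-71453252 on the plus strand and DHCR7 at chr11:71448344-71448643 on the minus strand, with 4309 bases between these windows.
FADD: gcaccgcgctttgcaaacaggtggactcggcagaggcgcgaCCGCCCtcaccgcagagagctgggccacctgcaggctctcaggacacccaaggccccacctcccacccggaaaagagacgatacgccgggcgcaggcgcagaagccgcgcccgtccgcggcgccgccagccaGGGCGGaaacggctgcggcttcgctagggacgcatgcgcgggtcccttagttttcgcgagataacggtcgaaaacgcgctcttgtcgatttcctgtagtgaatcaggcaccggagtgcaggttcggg
PPFIA1: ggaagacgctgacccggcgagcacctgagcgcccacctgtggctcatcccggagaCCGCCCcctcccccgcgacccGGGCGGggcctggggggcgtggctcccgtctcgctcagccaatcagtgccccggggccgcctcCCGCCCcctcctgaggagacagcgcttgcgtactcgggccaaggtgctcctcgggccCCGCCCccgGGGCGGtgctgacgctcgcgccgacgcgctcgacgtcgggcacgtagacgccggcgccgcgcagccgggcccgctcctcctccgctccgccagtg
CPT1A: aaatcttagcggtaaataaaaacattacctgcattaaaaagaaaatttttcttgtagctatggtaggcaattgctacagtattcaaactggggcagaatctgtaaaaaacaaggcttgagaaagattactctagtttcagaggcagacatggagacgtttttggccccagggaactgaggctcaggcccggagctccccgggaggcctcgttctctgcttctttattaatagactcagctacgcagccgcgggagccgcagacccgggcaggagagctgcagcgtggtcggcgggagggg
NADSYN1: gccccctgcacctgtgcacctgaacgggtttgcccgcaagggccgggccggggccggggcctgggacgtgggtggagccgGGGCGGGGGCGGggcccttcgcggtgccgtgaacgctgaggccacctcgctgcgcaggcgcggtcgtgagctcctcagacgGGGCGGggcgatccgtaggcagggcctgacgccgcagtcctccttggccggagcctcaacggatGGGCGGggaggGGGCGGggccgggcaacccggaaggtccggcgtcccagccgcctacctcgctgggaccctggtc
DHCR7: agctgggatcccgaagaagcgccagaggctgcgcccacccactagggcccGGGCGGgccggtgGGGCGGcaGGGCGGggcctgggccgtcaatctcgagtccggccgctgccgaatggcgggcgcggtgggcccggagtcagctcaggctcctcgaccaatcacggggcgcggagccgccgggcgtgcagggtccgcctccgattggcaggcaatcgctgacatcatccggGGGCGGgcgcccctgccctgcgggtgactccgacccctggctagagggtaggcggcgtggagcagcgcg

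The GC box occurred 2 times in the FADD window, 5 times in that of PPFIA1, 5 times in that of NADSYN1 and 4 times in that of DHCR7, which rose. It occurred 3 times in the window of LRP5 and 4 times in that of PPP6R3, and its letters were not found in the CPT1A window. Of 35116 promoter windows of this length, 45.0% held a GC box. A loose form of the AP-1 motif, TGANTCA with N as any base, was found 1 time in the FADD window. It was found in none of the other 5 members' windows, against 7.71% of all windows. The FADD match read TGAATCA, whereas the AP-1 consensus has C or G in the middle, so that consensus was not found there. The sterol motif TCACNCCAC was not found in the DHCR7 window, and 1.13% of all windows held it. The GC content of the 6 members' windows was lowest for CPT1A and highest for LRP5, at 86.7%, against a median of 58.7% over all windows. These matches describe letters in a window and do not show binding.

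The products of the 9 genes work with other proteins, and 8 lists of such partners, 98 measured genes in all, were compared in the same fit. Of these 25 were higher, 29 lower and 44 not called, beside 24.5% higher and 23.5% lower over all genes. Cyclin D partners moved both ways: of 16 measured genes 4 were higher, 3 lower and 9 not called (median 0.04). CDK4, the kinase that cyclin D1 activates, fell by 0.63 ± 0.04 (SE), and the inhibitor CDKN1A, which encodes p21, by 0.82 ± 0.06. RB1, the retinoblastoma protein that the kinase phosphorylates, rose by 0.88 ± 0.12, and the CDK4 inhibitor CDKN2D by 1.05 ± 0.12. The rise of CDKN2D was not seen once _x_at and _s_at sets were left out, when it differed by -0.09, and it shrank to 0.16 with values floored at the median of all probe sets and to 0.48 as the mean of its probe sets; that mean was 0.49 for RB1. The related cyclins CCND3 and CCND2 differed by 0.38, a called rise, and by -0.06, which was not called. Both were named after their values were seen. CCND2 lay below the lower quartile of all values, 5.27, in both groups, at 4.64 and 4.58, where background limits a difference.

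Of 9 measured genes of the death receptor complex that FADD serves, 6 were lower, 1 higher and 2 not called (median -0.29), beside 23.5% lower and 24.5% higher over all genes. Some of the lower calls are uncertain. FASLG was below the lower quartile of all values, 5.27, in both groups, with means of 4.43 in parental cells and 4.15 in WZR6. TRADD was lower by 0.23 on its brightest probe set, but another of its probe sets was called higher. The death ligand TNFSF10, which encodes TRAIL, fell by 1.10 ± 0.14 (SE), and CFLAR, the inhibitor that competes with caspase-8 for FADD, by 1.04 ± 0.06. The TRAIL receptor TNFRSF10B rose by 0.77 ± 0.05, or 0.46 as the mean of its probe sets. With the same floor as for CDKN2D, TNFSF10 fell by 0.49. CFLAR was not called, at -0.06, once _x_at and _s_at sets were left out.

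Around cortactin, 4 of 16 measured branched-actin genes were higher, 4 lower and 8 not called (median -0.01). The ARP2/3 subunits ARPC1B and ARPC1A fell by 1.43 ± 0.06 (SE) and 0.90 ± 0.05, while WASF2, which activates the complex, rose by 0.91 ± 0.04 and SRC, the kinase that phosphorylates cortactin, by 0.58 ± 0.05 (0.29 as the mean of its probe sets). Among 10 liprins and LAR phosphatases 1 was higher, 1 lower and 8 not called. PTPRF, the LAR phosphatase that liprins bind, rose by 0.51 ± 0.05, and PPFIA4 fell by 0.25 ± 0.08, a call lost in 7 of its 11 alternatives: with median centring, with an intensity trend and robust variance, with the replicate block and in 4 of the 6 fits that left out 1 array.

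Of 19 genes of the WNT receptor complex around LRP5, 5 were higher, 6 lower and 8 not called (median 0.01). LRP6, the close relative of LRP5, rose by 0.63 ± 0.08 (SE) and the receptor FZD7 by 0.70 ± 0.09, while the secreted inhibitor DKK1 fell by 2.06 ± 0.06. DKK3 fell by 2.63 ± 0.10 on its brightest probe set, by 0.65 as the mean of its probe sets, and was not called once _x_at and _s_at sets were left out, when it was 0.04 higher in WZR6. Of 13 genes of the carnitine shuttle and fatty acid oxidation, 5 were higher, 3 lower and 5 not called (median 0.18). ACSL1 and PPARA rose by 0.64 ± 0.09 and 0.67 ± 0.10 (0.43 for PPARA as the mean of its probe sets). PPARA was dim, with means of 4.70 in parental cells and 5.37 in WZR6, near the lower quartile of all values, 5.27. Both subunits of the mitochondrial trifunctional protein, HADHA and HADHB, fell by 0.63 ± 0.04 and 0.36 ± 0.05.

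Of 11 NAD synthesis genes 3 were higher, 5 lower and 3 not called (median -0.22). The tryptophan dioxygenase TDO2 rose by 2.11 ± 0.09 (SE), or by 0.76 with values floored at the median of all probe sets. NADK, which makes NADP, rose by 0.74 ± 0.06. KMO of the kynurenine pathway fell by 0.94 ± 0.14 and NAMPT, the salvage enzyme, by 0.33 ± 0.04. KMO was dim, with means of 5.31 in parental cells and 4.37 in WZR6, and fell by 0.65 as the mean of its probe sets. Of 4 measured genes of phosphatase 6, the catalytic subunit PPP6C and the regulatory ANKRD28 both rose by 0.37, the regulatory PPP6R1 fell by 0.88 ± 0.06 and 1 was not called.

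**Figure D4:**
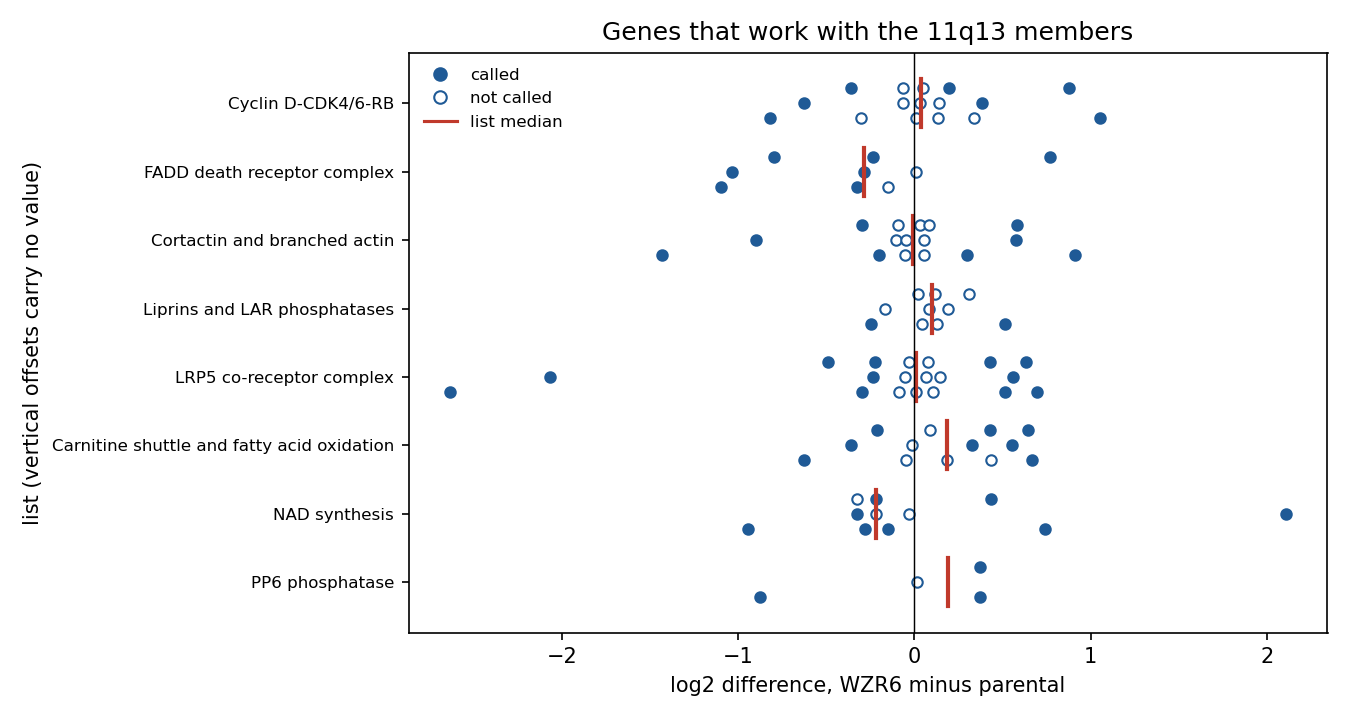
Log2 difference (WZR6 minus parental, horizontal axis) of each measured gene in the 8 partner lists, with filled points for genes called by limma, open points for genes not called and a line at each list's median. The medians lie between -0.29 for the death receptor list and 0.19 for phosphatase 6, and each list holds calls in both directions.

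The genes whose 6 values most resembled those of the brightest CCND1 probe set lay on other chromosomes. They were EIF3H, a translation initiation subunit, with a Pearson r of 0.998, RNF13 with 0.995 and CDK7, the CDK-activating kinase, with 0.995. The 6 points fall into the groups compared, so r follows the group difference in part. It also follows the spread of this CCND1 probe set within groups, which the other CCND1 probe set did not share. The value of r is given as a description. The differences of these genes were smaller than that of CCND1, at -0.11, -0.39 and -0.23. That of EIF3H was not called (adjusted p = 0.0635 in limma), nor was it in 10 of its 14 alternatives.

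Intensities of the table reached 44567, and the arrays' medians ran from 163 to 171. No pair of arrays was identical, and log2 values correlated across probe sets with r of at least 0.9978 within a group. Of 8 epithelial and lung markers 7 were lower in WZR6, and the mean of their log2 values lay between 11.91 and 11.97 in parental arrays and between 9.49 and 9.57 in WZR6 arrays. Of 4 measured leukocyte markers 2 were lower, and of 6 fibroblast and endothelial markers 2 were higher and 2 lower. The lower leukocyte markers were CD14, at -0.96, and ITGB2, at -1.37, while PTPRC, the pan-leukocyte antigen, and the T cell marker CD3E were not called, at -0.02 and -0.06. Whether these marker shifts have a part in the 11q13 differences was not tested.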

How the data were processed

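RNA from 6 samples was hybridised to 1 oligonucleotide array each. The deposited table holds linear intensity values that the authors made with RMA, as the submitters' processing notes name it. RMA corrects background, equalises the distributions of the arrays and gives 1 value per probe set; no version, settings or detection calls come with the sources read. Values were converted to log2 without a pseudocount or filter. After 62 of 22277 probe sets were left out as controls, a two-sided limma test (version 3.58.1, R 4.3.3; lmFit, eBayes, Benjamini-Hochberg) was run on 22215 probe sets and on 11963 genes. A gene was represented by the probe set of its own with the highest mean over the 6 arrays. SEs come from this moderated fit. Of 19064 probe sets with 1 gene, 19052 matched the RefSeq table of GRCh38.p14 by Entrez identifier, which gave the gene order; no coordinates of that table are printed.

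The genes and lists were chosen with earlier results of these data known. Named neighbours were those called with a difference of at least 1, the 3 largest calls in each direction, and listed 11q13 genes from TCIRG1 to DHCR7; in each partner list, up to 2 calls in each direction. Alternatives covered scaling, filters, a floor, variance trend, a replicate block, the choice of probe sets, flanks and leaving out each array. The fit was also run on simulated data with independent noise and few shifted probe sets. That setting is unlike these data, so the run does not give the error rate of the calls here. Figures were drawn with matplotlib 3.10.9 (Python 3.11.15). With 3 arrays in a group, precision is limited by that number.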

Additional observations from a re-analysis of the deposited data

How the results depend on the processing

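In every alternative run the difference kept its sign in each of the 9 genes: it ran from -0.87 to -0.63 for CCND1, -0.73 to -0.66 for FADD, -0.64 to -0.43 for PPFIA1, -1.02 to -0.56 for CTTN and 0.03 to 0.14 for CPT1A. Without _x_at and _s_at probe sets, with fewer probe sets and genes tested, 4245 probe sets and 3487 genes were called, against 9131 and 5748. The median difference of the 9 genes was then -0.59, with PPP6R3 and NADSYN1 not measured. Of the 11q13 neighbours 11 were lower and 3 higher, against 20 and 6, and 35 partner genes were called, against 54. CDKN2D and DKK3 turned, to -0.090 and 0.040; the cause was not tested. With no flank 1 neighbour was lower and 1 higher, and with 50 genes on each side 39 and 22. The sides differed in that wider flank: 33 centromeric genes were lower and 6 higher, against 5 lower and 15 higher on the distal side. Leaving out each array gave 5043 to 5441 genes, 19 to 22 lower and 4 to 5 higher neighbours, and a median of -0.50 to -0.42 for the 9 genes. Same-numbered samples were not treated as paired in the main fit. Their deviations correlated at -0.01, 0.12 and 0.23, and 3 of 6 arrays correlated best with their own number. So few arrays cannot show whether same-numbered samples were handled together. A replicate block gave 5729 genes and 21 lower and 6 higher neighbours.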
